A study of Mus musculus with 4 samples.

Results

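Plasmacytoid dendritic cells were picked out of lung leukocytes by the UMIs (counted RNA molecules) that each cell barcode held. A barcode entered the gate with at least 2 UMIs of Siglech and 1 of Bst2, at most 1 of Xcr1 and Clec9a together, at most 1 of Cd209a, at most 5 of the C1q genes and 0 of Cd3e, Cd79a and Plet1, after a filter of at least 200 genes and at most 10% mitochondrial UMIs. Of 9256 kept barcodes, 73 passed. The cells were thus chosen by measured UMIs of these genes, whose levels are a description and support nothing.

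The lungs came from Balb/c mice that had been given 4T1 cells (a murine breast cancer line able to colonise lung) into the vein 14 days earlier. The 4T1 cells were either PD-L1 KO, lacking the checkpoint ligand PD-L1 (Cd274), or WT. In both groups the host mice carried their own Cd274, and leukocytes were enriched from collagenase-digested lung with CD45 magnetic beads before droplet 3' sequencing. There were 2 libraries labelled PD-L1 KO and 2 labelled WT. No label states that a group's libraries are from separate mice, so p-values measure only the spread between these libraries. The names of the files deposited for the libraries labelled WT say KO, against their labels, and those for the libraries labelled PD-L1 KO say CK. Which is right was not settled, and every group below follows the sample labels. Were the file names right, the sign of every PD-L1 KO minus WT difference would be reversed. Cd274 gives no check of the labels, since the deletion is in the injected cells and a 3' count can persist: barcodes outside the gate held 47.7 and 39.2 CPM (UMIs of a gene scaled to a common library total) in the PD-L1 KO libraries and 31.2 and 24.2 CPM in the WT libraries.

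Plasmacytoid dendritic cells are the immune cells best known for releasing large amounts of type I interferon after sensing nucleic acids through the endosomal receptors TLR7 and TLR9. The transcription factor E2-2, encoded by Tcf4, sets their identity with SpiB, Runx2, Bcl11a and Irf8. Their endoplasmic reticulum is well developed, and resting cells hold less MHC class II and co-stimulatory protein than conventional dendritic cells. The conventional cells fall into cDC1, which cross-present antigen and carry Xcr1 and Clec9a, and cDC2, marked here by Cd209a.

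The gate held 17 and 31 cells in the PD-L1 KO libraries and 17 and 8 cells in the WT libraries. Library totals were 17618220 to 19635983 UMIs over 2370 to 2736 barcodes, and no pair of libraries shared more than 3 barcode sequences. The gated cells had medians of 7853 and 6324 UMIs in the PD-L1 KO libraries and 6580 and 5594.5 UMIs in the WT libraries, against 4541 to 5629 for all kept barcodes. Their median mitochondrial share was 6.33% to 6.94%, against 4.20% to 4.65% for all kept barcodes. Doublet scores from Scrublet, with the highest-scoring barcodes marked in number as the loading rate predicts, marked 1 of the 73.

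Siglech encodes an endocytic receptor of these cells. Of 197 kept barcodes with 2 or more Siglech UMIs, 73 met every other limit. They were 17 of 52 and 31 of 58 in the PD-L1 KO libraries and 17 of 50 and 8 of 37 in the WT libraries. The limits failed most often were those on Cd3e, Cd79a and Plet1 (66 barcodes) and on the C1q genes (55 barcodes). Among barcodes that met the other limits and held a Siglech UMI, most lay well above the Siglech threshold. Of the 73 cells 64 had 10 or more Siglech UMIs, and every one of those 64 also had UMIs of Tcf4, Ccr9, Cox6a2 and Irf8. Klk1 UMIs were in 61 of the 64. Just inside the threshold were 3 cells with 2 Siglech UMIs, which together held 1 Tcf4 UMI and no Ccr9 UMI. Just outside were 5 barcodes with 1 Siglech UMI that met every other condition, with 11 Tcf4 UMIs and 1 Ccr9 UMI between them. All 20 markers of plasmacytoid dendritic cells, which include the gating genes Siglech and Bst2, were detected in the gated cells of each library except WT 1, where Cd300c was at 0. All 20 were also detected in the other barcodes of each library, so detection alone does not set the gated cells apart.

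A few gated barcodes also carried RNA of other cell types. In 7 of the 73, marker genes of other lineages (41 genes of neutrophils, alveolar macrophages, T, NK, mast, stromal, endothelial and carcinoma cells, with Lyz2) made up 0.391% or more of the UMIs, whereas the other 66 stayed at or below 0.192%. There was 1 such barcode in PD-L1 KO 1, and 2 in each other library. In PD-L1 KO 1 the barcode held 373 Lyz2 UMIs. In PD-L1 KO 2 one held 222 S100a9 UMIs and the other 204 Lyz2 UMIs. WT 2, with the fewest gated cells, was affected most: a barcode with endothelial genes supplied 51543 of the 87710 UMIs of its 8 gated cells, or 58.8%. The 5 endothelial markers summed to 46 and 25 UMIs in all gated PD-L1 KO cells, where Cldn5 and Egfl7 were at 0, and to 129 and 405 UMIs in WT, where all 5 were detected. These UMIs lay in 14 of 17 and 17 of 31 PD-L1 KO cells and in 11 of 17 and 3 of 8 WT cells. In PD-L1 KO they were thus not confined to the mixed barcodes. Of B-cell genes, Ms4a1 and Pax5 were at 0 in every library's gated cells, Cd79a was at 0 by the gate, and Cd79b gave 9 and 7 UMIs in PD-L1 KO and 8 and 1 UMIs in WT. These 7 are called mixed and the 66 unmixed. The division was made after the data had been seen, and the results are given for all 73 cells and for the 66.

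**Figure D1:**
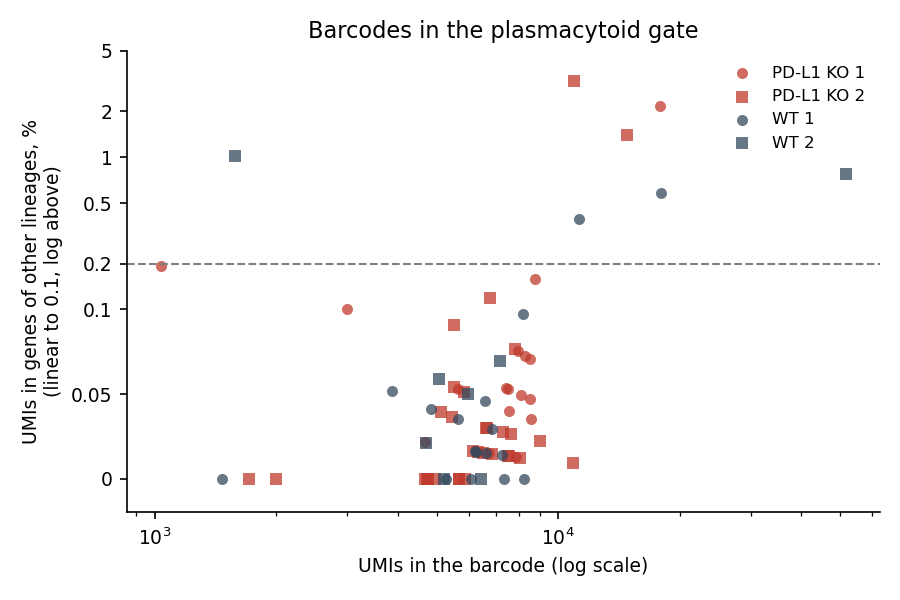
Each point is 1 of the 73 gated barcodes. The horizontal axis gives its UMIs on a log scale and the vertical axis the percentage of them in marker genes of other lineages, with the dashed line at 0.2%. The 7 barcodes above the line are spread over the 4 libraries, and the one with 51543 UMIs is in WT 2.

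Plasmacytoid dendritic cells made up 0.749% and 1.5% of the kept barcodes in the PD-L1 KO libraries, against 0.678% and 0.331% in the WT libraries. Both PD-L1 KO shares lay above both WT shares, although PD-L1 KO 1 and WT 1 differed by little, with exact 95% binomial intervals of 0.437% to 1.20% and 0.395% to 1.08%. The intervals were 1.02% to 2.13% for PD-L1 KO 2 and 0.143% to 0.652% for WT 2, and they cover counting error only. The means were 1.13% ± 0.534 in PD-L1 KO and 0.504% ± 0.245 in WT (SD, n = 2 each), a ratio of 2.23. An exact two-sided permutation test gave p = 0.333, the smallest that 2 libraries against 2 allow. Among barcodes in the 3 dendritic gates the share was 33.3% and 50% in PD-L1 KO and 32.1% and 14.5% in WT (exact permutation p = 0.333). The cDC1 gate held 18 and 16 cells in PD-L1 KO and 24 and 30 in WT, and the cDC2 gate 16 and 15 in PD-L1 KO and 12 and 17 in WT. The share ratio rested on 1 library of each group: it was 0.57 on the log2 scale without PD-L1 KO 2, 0.73 without WT 2 and 1.16 with all 4 libraries.

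**Figure D2:**
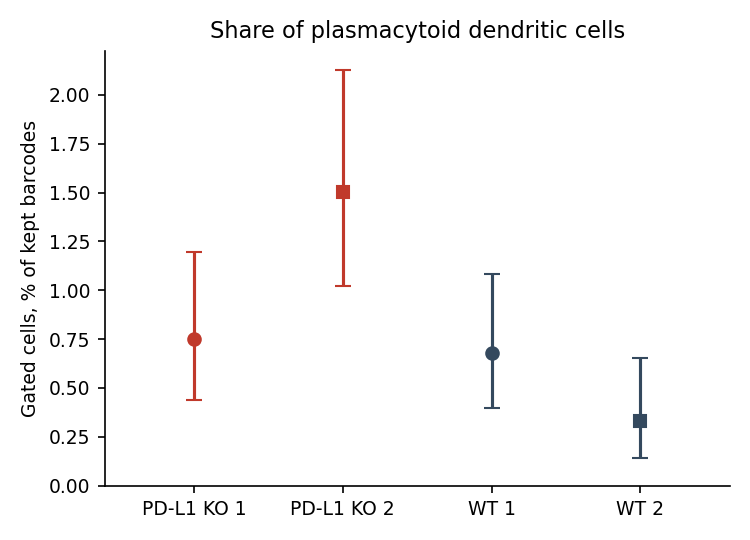
Gated cells as a percentage of kept barcodes in each library, with exact 95% binomial intervals. The values are 0.749% and 1.5% in the PD-L1 KO libraries and 0.678% and 0.331% in the WT libraries.

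Outside the gating genes the cells held high levels of the lineage's transcription factors. Because the gate itself sets these cells apart, every difference from other barcodes or from the conventional gates, and every count of calls there, is a description and supports nothing. Only the gated cells were filtered for mixed barcodes, and the conventional gates and other barcodes were not. Neutrophil markers summed to 791 to 2404 CPM in the cDC1 gate and 64.9 to 9067 CPM in the cDC2 gate over the libraries. In sums over the unmixed cells, Tcf4, the factor that specifies the lineage, had 2135 and 2512 CPM in PD-L1 KO and 2810 and 3267 CPM in WT. All other barcodes of the same libraries had 171 to 308 CPM, and the cDC1 and cDC2 gates 77.5 to 187 CPM. Spib, which encodes a second lineage factor, had 274 to 372 CPM in unmixed cells, against 0 in the cDC1 gate of every library and 17.0 to 22.8 CPM in other barcodes. Runx2 averaged 789 ± 256 CPM and Bcl11a 790 ± 91.3 CPM (SD, n = 4 libraries), against 41.3 ± 7.36 CPM and 40.1 ± 5.70 CPM in other barcodes. In contrast Id2, an inhibitor of E proteins such as E2-2, averaged 39.6 ± 41.2 CPM in unmixed cells, against 1010 ± 103 CPM in the cDC1 gate and 243 ± 65.5 CPM in the cDC2 gate. Batf3, needed for cDC1 development, averaged 2.79 ± 5.58 CPM, against 152 ± 28.1 CPM in the cDC1 gate.

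Over all genes 1754 of 12440 tested differed between the 73 gated cells and other barcodes at an adjusted p under 0.05 (edgeR quasi-likelihood test on library sums), which is 14.1%, with 560 higher (4.5%) and 1194 lower (9.6%). DESeq2 gave 611 higher and 796 lower. Without the mixed barcodes 25.9% were called, 7.47% higher and 18.5% lower. Against the cDC1 gate 34.5% of genes were called over all gated cells, 17.2% higher and 17.3% lower, and against the cDC2 gate 30.2%, 15.2% higher and 15% lower. Of 2065 genes tested against other barcodes, the cDC1 gate and the cDC2 gate, 175 (8.47%) were higher in all 3 comparisons and 149 (7.22%) lower in all 3. In unmixed cells these shares were 14.7% and 11%. Nothing is read from these shares, since expression chose the cells.

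The genes that stood furthest above the rest had little RNA elsewhere. Cox6a2, a subunit of cytochrome c oxidase best known from muscle, had 2389 and 1982 CPM in unmixed PD-L1 KO cells, 1697 and 1966 CPM in unmixed WT cells and 5.52 to 22.8 CPM in other barcodes. It was at 0 UMIs in both conventional gates, so over the pooled libraries it was at least 597-fold higher in the gated cells than in the cDC1 gate and at least 341-fold higher than in the cDC2 gate, taking 3 counts over the group as the floor. The kallikreins Klk1 and Klk1b27, secreted serine proteases, were also at 0 in both gates. Klk1 averaged 2300 ± 362 CPM and Klk1b27 533 ± 28.7 CPM in unmixed cells, but the genes are near copies and the split of reads between them is uncertain. Ccr9, the receptor for the chemokine CCL25 that guides cells to gut and thymus, had 1444 and 1379 CPM in unmixed PD-L1 KO cells and 1168 and 925 CPM in unmixed WT cells. It reached at most 47.4 CPM in either conventional gate.

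Other members of this set had roles in membranes and metabolism. Pacsin1, which bends membranes in endocytosis, averaged 465 ± 111 CPM in unmixed cells, against 11.7 ± 2.81 CPM in other barcodes. Upb1, an enzyme of pyrimidine breakdown, averaged 322 ± 94.3 CPM, against 6.03 ± 0.833 CPM. Kmo, the kynurenine 3-monooxygenase of tryptophan breakdown, averaged 402 ± 90.9 CPM, against 11.5 ± 1.91 CPM. Paqr5, Smim5, Lefty1, Cacna1e, Carmil1, Tex2, Rnase6 and Cd7 completed the 15 genes that stood furthest above other barcodes among those higher in all 3 comparisons, with log2 differences of 3.95 to 6.05 against other barcodes over all 73 cells. Those furthest below were Bcl2a1a, Tgfbi, Dusp2, Mt1 and Cd300c2, at log2 differences of -5.90 to -3.77. Bcl2a1a, which belongs to a family of near-identical survival genes so that its reads are uncertain, averaged 2.27 ± 4.54 CPM in unmixed cells and 274 ± 38.3 CPM in the cDC1 gate.

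RefSeq promoter windows (build GRCm38.p6) held 10 of these 15 genes. The E-box CAGGTG, a sequence that E proteins such as E2-2 can bind, was searched on both strands in the 250 bases before each start and was found for 3 of the 10, Klk1, Paqr5 and Ccr9. It occurred in 17.2% of all 32851 windows. The Ccr9 window is shown because Ccr9 is the marker of this set that was named for the cells. It lies at chr9:123766961-123767210 on the plus strand, with the E-box in capitals starting 85 bases before the start.
Ccr9: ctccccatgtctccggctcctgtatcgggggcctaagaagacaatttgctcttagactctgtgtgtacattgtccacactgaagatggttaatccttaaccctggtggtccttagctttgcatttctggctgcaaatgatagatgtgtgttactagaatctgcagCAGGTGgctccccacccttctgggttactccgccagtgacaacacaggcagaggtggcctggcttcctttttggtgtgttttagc

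Many secretory genes were higher than in the conventional gates and MHC class II genes lower. Of the 19 secretory and unfolded protein response genes tested against the cDC1 gate in unmixed cells, 13 were called higher and 0 lower, and against the cDC2 gate 10 of 19 were higher and 0 lower. Over all genes 43.7% were called against cDC1 (21.5% higher, 22.2% lower) and 40.1% against cDC2 (19.9% higher, 20.1% lower). Mzb1, a chaperone of antibody-secreting cells, had 545 and 592 CPM in unmixed PD-L1 KO cells and 452 and 289 CPM in unmixed WT cells, and at most 7.21 CPM in either conventional gate. Xbp1, the transcription factor of the unfolded protein response, averaged 459 ± 119 CPM, against 85.1 ± 31.5 CPM in the cDC1 gate and 142 ± 49.4 CPM in the cDC2 gate. Of 13 MHC class II genes found in the data 9 were tested against cDC2 and all 9 were called lower. Against cDC1 9 of 11 were lower and 1 higher, Ctss, which encodes the protease that trims the invariant chain, at 692 ± 59.3 CPM in unmixed cells and 380 ± 27.9 CPM in the cDC1 gate. H2-Aa, a class II chain, averaged 1068 ± 169 CPM in unmixed cells, against 8764 ± 369 CPM in the cDC1 gate and 8985 ± 1340 CPM in the cDC2 gate. Cd86, a co-stimulatory ligand, averaged 6.42 ± 4.84 CPM, against 309 ± 42.2 CPM in the cDC1 gate and 134 ± 49.0 CPM in the cDC2 gate.

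Of 17 homing and migration genes tested against other barcodes in unmixed cells 8 were called higher and 6 lower, where 7.47% of all genes were higher and 18.5% lower. Ly6c2, a surface antigen shared with monocytes, had 1580 and 1318 CPM in unmixed PD-L1 KO cells and 1256 and 723 CPM in unmixed WT cells, against 83.7 ± 20.7 CPM in other barcodes. Selplg, the selectin ligand PSGL-1, averaged 700 ± 111 CPM, against 289 ± 32.7 CPM in the cDC1 gate and 254 ± 41.3 CPM in the cDC2 gate. Of 21 inhibitory and activating receptor genes 7 were called higher and 11 lower, with a median log2 difference of -1.17, against -0.46 over all genes. Those higher included Lair1, Ptprs and Lag3. Lair1, a collagen receptor, averaged 820 ± 225 CPM in unmixed cells and 79.5 ± 18.1 CPM in other barcodes. Ptprs, a receptor phosphatase, averaged 282 ± 51.2 CPM, against 23.5 ± 3.23 CPM. Lag3, a checkpoint receptor that binds MHC class II, averaged 154 ± 50.7 CPM, against 8.44 ± 4.35 CPM.

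Most of the cytokine and cycling genes tested were lower in the cells than in other barcodes. Of 23 cytokine and effector genes tested against other barcodes in unmixed cells, 2 were called higher and 18 lower, and of 16 cell cycle genes 0 were higher and 14 lower. Of all genes 7.47% were higher and 18.5% lower in that comparison. Against the cDC1 gate 1 of 5 tested cytokine and effector genes was called higher and 3 lower. Against the cDC2 gate 1 of 8 was called higher and 6 lower. Over all genes 21.5% were higher and 22.2% lower against cDC1, and 19.9% and 20.1% against cDC2. Il1b, an inflammatory cytokine of myeloid cells, averaged 15.2 ± 12.2 CPM in unmixed cells, against 676 ± 215 CPM in the cDC1 gate and 2318 ± 265 CPM in other barcodes. Neither of these was filtered for mixed barcodes. Cd83, a maturation marker, averaged 5.58 ± 11.2 CPM, against 419 ± 118 CPM in the cDC1 gate and 251 ± 79.3 CPM in the cDC2 gate. Mcl1, a survival gene, averaged 312 ± 114 CPM, against 899 ± 67.7 CPM in other barcodes.

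**Figure D3:**
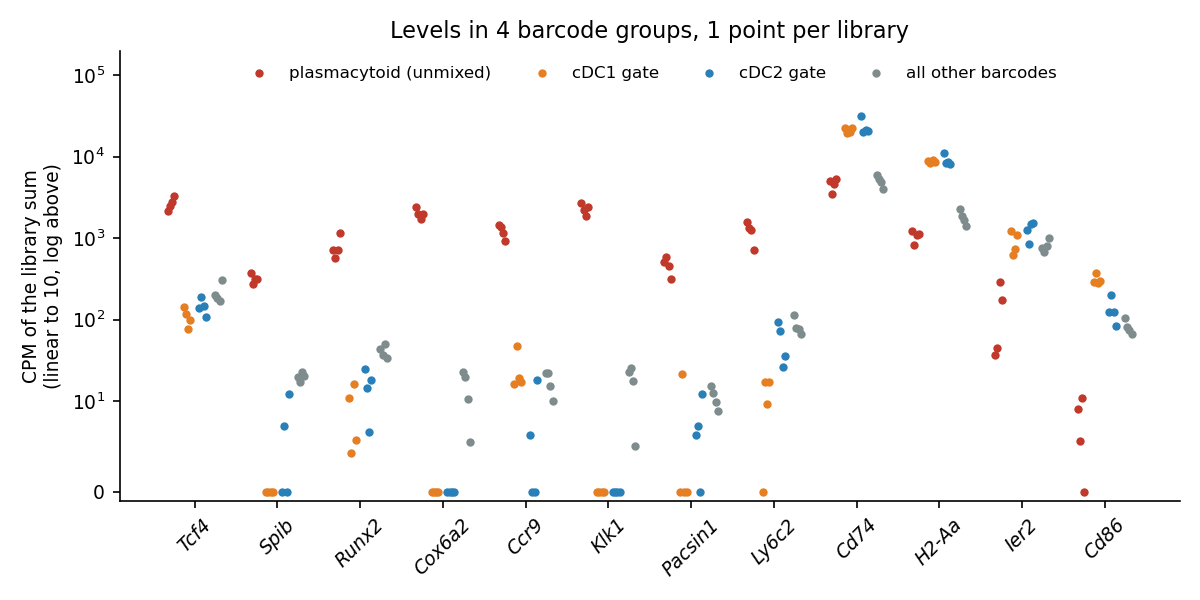
CPM of 12 genes in sums of unmixed gated cells, the cDC1 gate, the cDC2 gate and all other barcodes, with 1 point per library, on an axis that is linear to 10 CPM and logarithmic above. Cox6a2 and Klk1 are at 0 in both conventional gates, and Cd74, H2-Aa, Ier2 and Cd86 are lower in the gated cells than in them.

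No gated cell held a UMI of an interferon gene. All 21 interferon genes looked for, which comprise type I and type III genes and Ifng, were at 0 in the 73 cells, and 19 of them were at 0 in every kept barcode. A count of 0 in 73 cells allows a share of up to 4.11% of cells with a UMI, which does not limit the cells that express such a gene, and the floor of 3 counts corresponds to 14.6 to 34.2 CPM per library. Tnf and Cxcl10 were likewise at 0. Of 25 endosomal sensing genes tested against other barcodes in unmixed cells 10 were called higher and 5 lower, and of 14 cytosolic sensing genes 2 were higher and 5 lower (7.47% and 18.5% of all genes). The endosomal receptor gene Tlr7 gave 18 and 24 UMIs in PD-L1 KO and 16 and 3 UMIs in WT, and averaged 127 ± 34.9 CPM in unmixed cells, against 26.9 ± 1.87 CPM in other barcodes. Tlr9 gave 1 UMI in all. Unc93b1, which carries these receptors to the endosome, averaged 472 ± 63.0 CPM in unmixed cells and 180 ± 30.2 CPM in other barcodes. Pld4, an endosomal nuclease that degrades their ligands, averaged 964 ± 54.6 CPM, against 172 ± 33.8 CPM. Ifnar1, a chain of the type I interferon receptor, had 427 and 430 CPM in unmixed PD-L1 KO cells and 408 and 289 CPM in unmixed WT cells, all above the 34.0 to 104 CPM of the conventional gates. Of the checkpoint pair, Pdcd1 was at 0 in the gated cells. Cd274 gave 1 and 3 UMIs in PD-L1 KO and 0 and 0 in WT, which is at or below the floor in every library.

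Single cells ranged widely in Ly6a, the stem cell antigen Sca-1 that interferon raises. Among the 66 unmixed cells its median was 1 UMI and its highest 48, and its UMIs summed to 111 and 190 in PD-L1 KO and 81 and 0 in WT. None of the 6 unmixed WT 2 cells held one, where the floor of 3 counts is 86.7 CPM. Irf7, the factor that drives interferon genes, had a median of 3 UMIs and a highest of 30. Ccr9 ranged up to 24 UMIs with a median of 7. Cycling genes were near 0, with 1 Mki67 UMI and 0 Top2a UMIs in the 66 cells.

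The comparison of PD-L1 KO with WT asks whether plasmacytoid dendritic cells differ between lungs carrying tumours with and without the ligand. Klf2 and Klf6 fell in PD-L1 KO. Both encode Krüppel-like transcription factors, of which Klf2 maintains quiescence and controls trafficking in lymphocytes. Ier2, an immediate early gene, fell with them. These 3 genes were the ones that passed an adjusted p under 0.05 (edgeR quasi-likelihood test) both over all 73 cells and over the 66 unmixed ones.

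Klf2 (chr8:72319033-72321656 in the GENCODE annotation of build mm10) had 409 and 274 CPM in unmixed PD-L1 KO cells and 1355 and 925 CPM in unmixed WT cells. The groups did not overlap. The log2 difference was -1.85 (SE 0.26, adjusted p = 0.000166, edgeR), and over all 73 cells it was -1.91 (SE 0.31, adjusted p = 0.000227). In unmixed cells with 1 library left out the log2 difference was -2.04 to -1.49 and the adjusted p at most 0.005 (edgeR). Such fits set 1 library against 2 and assume that the lone library varies like the other group, here and below. Klf2 was the single gene that DESeq2 called there (adjusted p = 0.00487). The other barcodes of the same libraries held 986 and 948 CPM in PD-L1 KO and 1334 and 1601 CPM in WT. The difference between the gated cells and the other barcodes in the effect was -1.06 on the log2 scale and did not pass (edgeR, adjusted p = 0.16).

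Klf6 (chr13:5861482-5870394) had 345 and 240 CPM in unmixed PD-L1 KO cells and 793 and 925 CPM in unmixed WT cells, again with no overlap. The log2 difference was -1.57 (SE 0.25, adjusted p = 0.000995, edgeR). Other barcodes held 641 and 603 CPM in PD-L1 KO and 719 and 727 CPM in WT. The difference in effect between unmixed gated cells and other barcodes did not pass for Klf6 (edgeR). Without PD-L1 KO 2 the adjusted p of Klf6 in unmixed cells was 0.0849, and by DESeq2 it was 0.121.

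Ier2 (chr8:84661331-84662852) had 36.3 and 44.7 CPM in unmixed PD-L1 KO cells and 286 and 173 CPM in unmixed WT cells. These levels rest on 4 and 8 UMIs in PD-L1 KO and 26 and 6 UMIs in WT. The log2 difference was -2.58 (SE 0.47, adjusted p = 0.00423, edgeR), and the adjusted p was 0.687 without WT 1 and 0.765 by DESeq2. Its fall was larger than that in the other barcodes, which held 762 and 683 CPM in PD-L1 KO and 795 and 995 CPM in WT, by -2.14 on the log2 scale (adjusted p = 0.031, edgeR).

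The promoter windows of Klf2 and Klf6 are shown because these genes were called lower both over all 73 cells and in unmixed cells. Of the 5 genes lower in unmixed cells 4 had an entry, and 3 of the 4, Klf2, Klf6 and Ahnak, held a GC box, whereas Jund held none. Klf2 and Klf6 hold the GC box GGGCGG, in capitals, a site for Sp1 and Krüppel-like factors: 2 in Klf2, which start 214 and 195 bases before the RefSeq start, and 1 in Klf6, which starts 63 bases before it. A GC box on either strand occurred in 32.7% of all 32851 windows of 250 bases. The cAMP response element TGACGTCA, found in 1.55% of windows, and the CArG box bound by SRF, found in 1.47%, were in none of the 4. The windows shown are plus-strand sequence of RefSeq build GRCm38.p6, at chr8:72318812-72319061 and chr13:5861239-5861488.
Klf2: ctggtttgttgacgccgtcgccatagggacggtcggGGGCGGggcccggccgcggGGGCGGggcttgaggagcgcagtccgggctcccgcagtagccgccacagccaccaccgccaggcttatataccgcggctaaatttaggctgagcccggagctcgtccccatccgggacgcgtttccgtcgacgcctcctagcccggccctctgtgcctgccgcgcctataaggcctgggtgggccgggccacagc
Klf6: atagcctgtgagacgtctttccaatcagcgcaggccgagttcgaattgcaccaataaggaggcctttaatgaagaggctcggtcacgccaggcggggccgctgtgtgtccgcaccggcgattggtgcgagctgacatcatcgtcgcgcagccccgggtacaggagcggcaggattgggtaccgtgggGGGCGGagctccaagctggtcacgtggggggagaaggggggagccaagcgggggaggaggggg

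In unmixed cells 6 of 1777 genes passed (0.338%), with 5 lower (0.281%) and 1 higher (0.0563%) in PD-L1 KO. Both PD-L1 KO libraries lay above both WT libraries for 20.5% of these genes and below them for 17.8%. Beside Klf2, Klf6 and Ier2, the AP-1 subunit gene Jund fell, with 645 and 765 CPM in PD-L1 KO and 1366 and 1417 CPM in WT (log2 difference -0.97, SE 0.22, adjusted p = 0.0486, edgeR). Ahnak, which encodes a very large scaffold protein, fell, with 263 and 519 CPM in PD-L1 KO and 904 and 1156 CPM in WT (log2 difference -1.29, SE 0.27, adjusted p = 0.0235, edgeR). Npc1, the transporter that exports cholesterol from lysosomes, rose, with 291 and 402 CPM in PD-L1 KO and 77.1 and 116 CPM in WT (log2 difference 1.98, SE 0.42, adjusted p = 0.0235, edgeR). In the 73 cells together these 3 missed the threshold, at adjusted p = 0.0747 for Jund, 0.0858 for Ahnak and 0.129 for Npc1 (edgeR). Leaving out a library also ended these calls. The adjusted p was 0.447 for Jund and 0.456 for Ahnak without PD-L1 KO 1. For Jund it was 0.0849 without PD-L1 KO 2 and 0.105 without WT 1. For Npc1 it was 0.205 without PD-L1 KO 2 and 0.324 without WT 1.

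**Figure D4:**
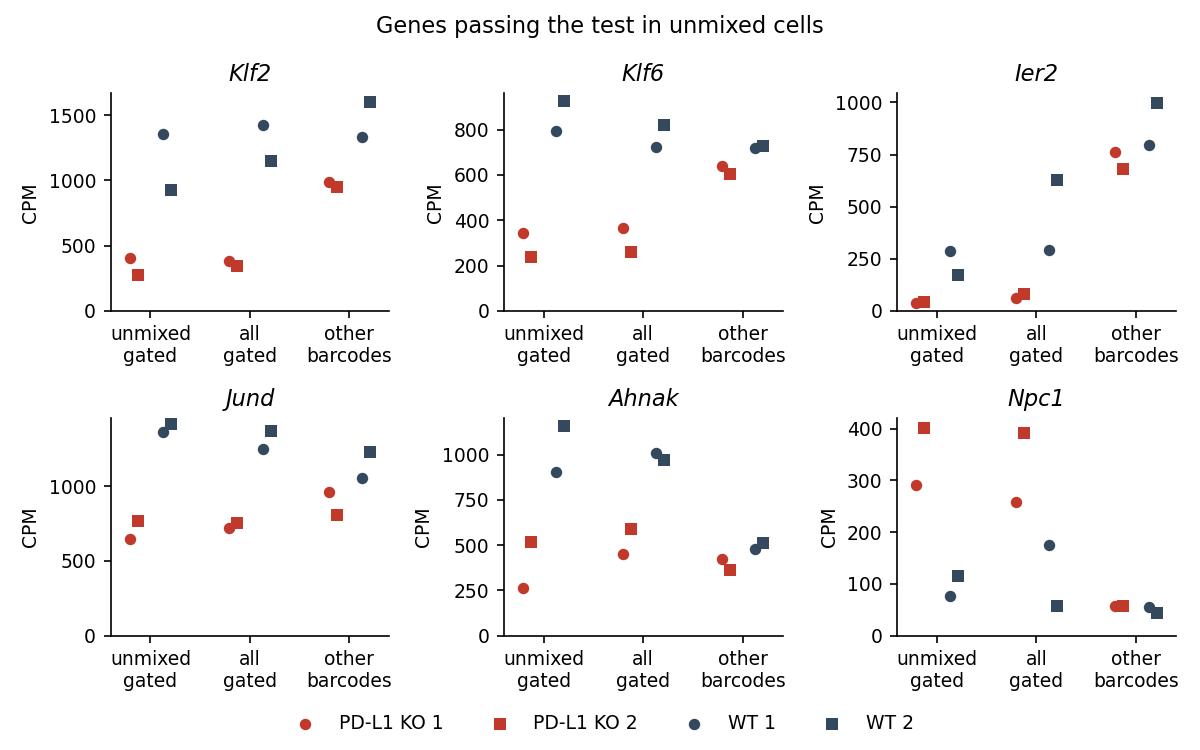
CPM of the 6 genes that passed in unmixed cells, for unmixed gated cells, all gated cells and all other barcodes of each library, with PD-L1 KO to the left of WT. For Klf2 the unmixed PD-L1 KO values are 409 and 274 CPM and the unmixed WT values 1355 and 925 CPM.

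The genes nearest the threshold in unmixed cells did not pass. Gpr183, an oxysterol receptor that positions immune cells, had 173 and 167 CPM in PD-L1 KO and 44.1 and 0 CPM in WT (adjusted p = 0.0969, edgeR). Slpi, a secreted protease inhibitor, had 3606 and 1641 CPM in PD-L1 KO and 1542 and 231 CPM in WT (adjusted p = 0.133, edgeR). Ccr2, a receptor for monocyte chemokines, had 236 and 257 CPM in PD-L1 KO and 573 and 492 CPM in WT (adjusted p = 0.0703, edgeR). The immediate early genes Fosb (adjusted p = 0.0819) and Btg2 (adjusted p = 0.0969) and the phosphatase gene Dusp5 (adjusted p = 0.131) had log2 differences of -1.45, -1.01 and -1.44 (edgeR). S100a6 had 382 and 502 CPM in PD-L1 KO and 815 and 1041 CPM in WT (adjusted p = 0.0823, edgeR). On the positive side Plac8, Ablim1, Rnf149, Zfp36l2, Psma7, Napsa and Cd59a had 0.65 to 1.96.

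Over all 73 cells 91 of 2244 genes passed (4.06%), 11 higher (0.49%) and 80 lower (3.57%) in PD-L1 KO. The groups did not overlap for 26.3% of genes with PD-L1 KO above and 19.2% with it below. Several leading calls rested on single mixed barcodes. Igfbp7, an endothelial secreted protein, had 0 and 0 UMIs in PD-L1 KO and 87 and 46 UMIs in WT, of which 86 and 46 came from 1 barcode in each WT library. Emp2, Kitl, Scn7a, Cldn5, Cavin2, Ednrb, Ramp2, Ctla2a and Sptbn1 were the other 9 leading lower calls. Of those, Cldn5, a tight junction protein of endothelium, had 38 and 97 UMIs in WT, of which 38 and 96 were in single barcodes. Among higher calls, the macrophage lysozyme gene Lyz2 had 386 and 214 UMIs in PD-L1 KO and 38 and 13 in WT, with 373 and 204 of the PD-L1 KO UMIs in 1 barcode of each library. Without the WT 2 barcode of 51543 UMIs 11 genes passed, and without all 7 mixed barcodes 6 passed, 3 of them among the 91.

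Other higher calls over 73 cells were made with the WT 2 barcode of 51543 UMIs in the sum. Without that barcode 3 genes were called higher, against 11 with it. Plac8, a gene of plasmacytoid and other myeloid cells, rose, with 4440 and 3876 CPM in PD-L1 KO and 2217 and 1163 CPM in WT (log2 difference 1.22, SE 0.23, adjusted p = 0.00107, edgeR), and no cell held more than 75 of its 568 and 794 UMIs in PD-L1 KO. In unmixed cells the difference was 0.65 and the adjusted p 0.154. Rnf149, a ubiquitin ligase gene, had 344 and 327 CPM in PD-L1 KO and 91.7 and 68.4 CPM in WT over 73 cells (log2 difference 1.96, adjusted p = 0.00778, edgeR), and a log2 difference of 1.41 with an adjusted p of 0.191 in unmixed cells. Cd59a, a complement inhibitor, had a log2 difference of 1.90 over 73 cells (adjusted p = 0.0396) and 1.51 in unmixed cells (adjusted p = 0.247, edgeR). Slamf9, a SLAM family receptor, had 1.71 over 73 cells (adjusted p = 0.0481) and 1.18 in unmixed cells (adjusted p = 0.279, edgeR). The remaining leading higher calls were S100a4, Gm21762, Ifi27l2a, Wfdc17 and Ms4a6c.

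The fit of unmixed cells called 0.338% of all genes. None of 13 tested transcription factors of the type and none of 20 tested surface and identity genes passed, with median log2 differences of -0.08 and 0.01, against -0.01 over all 1777 genes. Tcf4 had 2135 and 2512 CPM in PD-L1 KO and 2810 and 3267 CPM in WT (adjusted p = 0.609, edgeR). Irf8, needed for dendritic cell development, had 3897 and 3606 CPM in PD-L1 KO and 4198 and 4423 CPM in WT. Siglech had 2480 and 2334 CPM in PD-L1 KO and 2479 and 3238 CPM in WT. In the fit of all 73 cells Plac8 was higher and the factor genes Id3 and Klf4 were lower (edgeR), and the identity list had 19 of 22 tested genes on the positive side. In that sum the 2 mixed barcodes supplied 60.6% of the WT 2 UMIs.

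Of 87 interferon response genes found in the data 21 were tested in unmixed cells (0.338% of all genes called), 14 with positive and 7 with negative differences, 0 were called and the median was 0.19. Their summed level was 8784 and 9982 CPM in PD-L1 KO and 11106 and 3932 CPM in WT, so the WT libraries lay on both sides of the PD-L1 KO ones. In the other barcodes the sums were 10276 and 11056 CPM in PD-L1 KO and 8462 and 8409 CPM in WT, with no overlap. Over all 73 cells 29 were tested and the median was 0.44, with Ifi27l2a higher (log2 difference 1.28, adjusted p = 0.0272) and Slfn5 lower (log2 difference -1.73, adjusted p = 0.0165, edgeR). That median was -0.11 without WT 2, whose gated cells numbered 8, and 0.07 without PD-L1 KO 2. Ifit2, an interferon-induced inhibitor of translation, had 1 and 11 UMIs in unmixed PD-L1 KO cells and 23 and 0 in unmixed WT cells.

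Of 19 immediate early and heat shock genes 2 fell in PD-L1 KO in unmixed cells. There 12 were tested, 10 had negative and 2 positive differences, and Jund and Ier2 were called lower, with a median of -0.59 against -0.01 over all genes, of which 0.281% were lower. Over all 73 cells 12 of 13 tested were negative, and Jun, Egr1 and Ier2 were called lower, where 3.57% of all genes were. Jun, an AP-1 subunit, had 490 and 636 CPM in unmixed PD-L1 KO cells and 970 and 867 CPM in unmixed WT cells (adjusted p = 0.322, edgeR). Fos, its partner, had 1008 and 765 CPM in PD-L1 KO and 1906 and 781 CPM in WT (adjusted p = 0.346, edgeR). Hspa8, a constitutive chaperone, had 1453 and 1368 CPM in PD-L1 KO and 1421 and 896 CPM in WT. The summed level of the list was 5605 and 5460 CPM in unmixed PD-L1 KO cells and 9332 and 6100 CPM in unmixed WT cells. Other barcodes went the same way, with 13753 and 12454 CPM in PD-L1 KO and 13786 and 15114 CPM in WT. This list includes genes that tissue digestion is known to induce, and its part in the result was not tested.

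**Figure D5:**
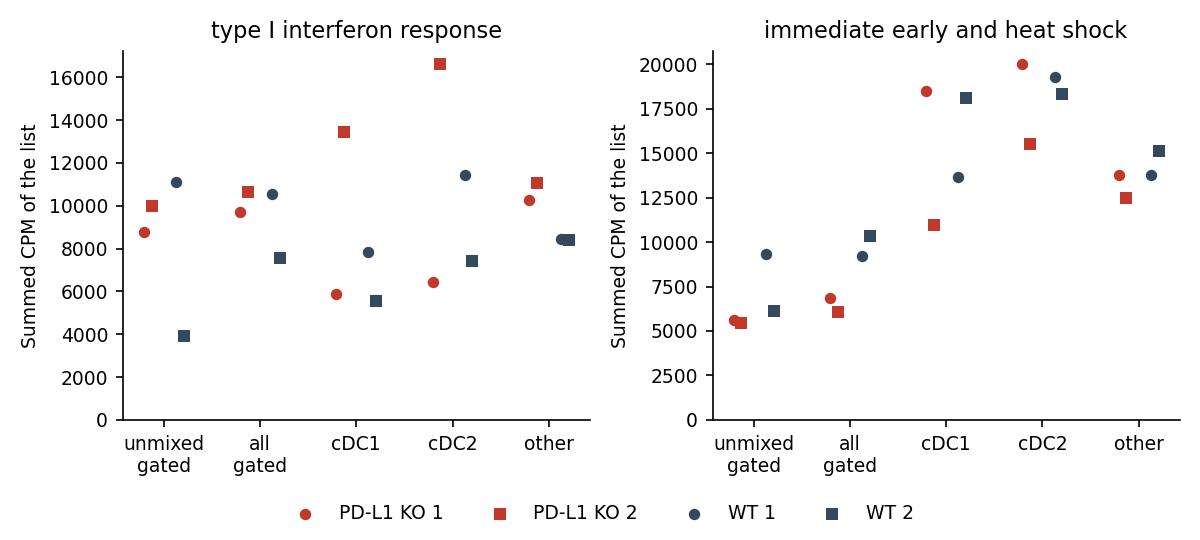
Summed CPM of the interferon response list (left) and the immediate early and heat shock list (right) in each library, for unmixed gated cells, all gated cells, the cDC1 and cDC2 gates and all other barcodes, with PD-L1 KO to the left of WT. The interferon sums of unmixed cells overlap between the groups, from 3932 to 11106 CPM in WT around 8784 and 9982 CPM in PD-L1 KO.

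Antigen presentation and secretion genes held 0 calls in either fit, where 0.338% (unmixed) and 4.06% (73 cells) of all genes were called. Of 7 tested MHC class II genes in unmixed cells 2 were positive and 5 negative, with a median of -0.15. Cd74, the invariant chain, had 5096 and 3517 CPM in PD-L1 KO and 4661 and 5348 CPM in WT. Of 15 tested class I genes 13 were positive, with a median of 0.50, and H2-D1, a class I heavy chain, had 3443 and 2574 CPM in PD-L1 KO and 2380 and 1272 CPM in WT (adjusted p = 0.322, edgeR). Of 18 tested secretory genes 14 were positive, with a median of 0.19. Hspa5, the main chaperone of the endoplasmic reticulum, had 1026 and 1016 CPM in PD-L1 KO and 859 and 463 CPM in WT (adjusted p = 0.607, edgeR). Endosomal sensing genes (13 tested, median 0.06), interferon receptor and JAK-STAT genes (9 tested, median -0.05), receptors (7 tested, median -0.38) and homing genes (9 tested, median -0.34) also held 0 calls in unmixed cells.

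The difference between PD-L1 KO and WT in the gated cells was also set against that in the other barcodes of the same libraries. Over all 73 cells 1.84% of 13135 genes passed (0.167% higher, 1.67% lower), and in unmixed cells 6 of 13053 (0.046%), 3 higher (0.023%) and 3 lower (0.023%). In unmixed cells Slpi was among the 3 higher, with a log2 difference of 1.48 (adjusted p = 0.000183, edgeR), and Ier2 among the 3 lower. Klf2, Klf6, Jund and Ahnak were not among the 6. Slpi had 141 UMIs in 1 PD-L1 KO 1 cell, and its values were 3606 and 1641 CPM in unmixed PD-L1 KO cells and 1542 and 231 CPM in unmixed WT cells, so that PD-L1 KO 2 and WT 1 lay close together. Npc1 had 56.8 and 56.6 CPM in other PD-L1 KO barcodes and 54.7 and 43.3 CPM in other WT barcodes, and its difference from them was 2.03 (adjusted p = 0.0513, edgeR).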

How the data were processed

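The deposited files hold UMI counts per gene and cell barcode in sparse matrices, 1 set per library. Per the submitters' processing notes the reads were processed with Cell Ranger 3.1.0 and STAR, and per the labels on mm10. Counts of the 4 libraries (2 PD-L1 KO, 2 WT) were used as deposited. Barcodes with at least 200 genes and at most 10% mitochondrial UMIs were kept, and barcodes marked as doublets by Scrublet score (scanpy 1.11.5) were left in. Counts of the gated cells, of 2 conventional dendritic gates (2 or more UMIs of Xcr1 and Clec9a, or of Cd209a, with 0 Siglech, the other limits of the rule kept) and of all other kept barcodes were summed per library, since cells are not replicates. Sums were tested with edgeR 4.0.16 (quasi-likelihood, TMM, filterByExpr, Benjamini-Hochberg over all genes tested, called at 0.05), with library as a block between cell groups. DESeq2 1.42.0 was an alternative. The tests were checked on simulated library sums, which cannot show how single mixed barcodes act on the calls. CPM scale the UMIs of a gene to a common total of the summed UMIs, for comparing 1 gene between samples. Genes of the gates were left out of counts of calls. PD-L1 KO minus WT is the sign of every group difference.

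The cells, gene lists and tests were chosen with earlier results of these data known. The named genes are the 10 higher and 10 lower with the smallest p of each PD-L1 KO against WT fit (all called ones in the fit with few calls), the 15 highest and 5 lowest against all other cell groups, the called and most abundant members of each list, and the interferon and PD-1 pathway genes. The 7 mixed barcodes were defined after seeing the data. The correlation of same-numbered libraries' deviations was -0.0526, from sums that included the mixed barcodes. With 2 libraries per group and such barcodes in the sums, this value cannot decide whether replicate numbers pair the libraries. The labels give no pairing. Promoter sequences are from RefSeq, GRCm38.p6.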

Additional observations from a re-analysis of the deposited data

Results flagged for a closer look

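The difference between PD-L1 KO and WT was set against the same difference in the other barcodes of the libraries, in a single edgeR fit with library as a block. Over all 73 cells 242 of 13135 genes passed (1.84%), 22 higher and 220 lower, and the 10 with the smallest p are given here. The endothelial genes named next, 7 in all, were at 0 UMIs in the PD-L1 KO cells, so their fitted log2 values are no bound: Epas1 (-14.83), Igfbp7 (-14.66), Cldn5 (-14.45), Sparc (-14.37), Adgrf5 (-14.33), Scn7a (-14.0) and Egfl7 (-13.92). Ramp2 had -6.41. Epas1 gave 21 and 189 UMIs in WT, each within 1 barcode. S100a9 (14.52), with 7 and 225 UMIs in PD-L1 KO and 0 and 0 in WT, had 222 of them in 1 barcode, and Lyz2 had 2.89.

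Without the 7 mixed barcodes 6 of 13053 genes passed (0.046%), 3 in each direction. Slpi was higher by 1.48 (adjusted p = 0.000183, edgeR), with 270 and 296 CPM in other PD-L1 KO barcodes and 319 and 195 CPM in other WT barcodes. Egr1 was at -3.93 and rested on 0 and 2 UMIs in PD-L1 KO and 20 and 0 in WT. Ier2 was at -2.14 and Ifit2 at -3.07. Ccr7 had a fitted 12.98, with 1 and 34 UMIs in PD-L1 KO, of which 34 in 1 cell, and 0 in WT. Cdh5, a cadherin of endothelium, had 2.61, with 32 and 16 UMIs in PD-L1 KO and 3 and 2 in WT. It is 1 of the 41 genes whose UMIs set the mixed barcodes apart, so its value in unmixed cells supports nothing.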

How the results depend on the processing

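For PD-L1 KO against WT over all 73 cells (91 genes called), 394 genes were called with no low-count filter, 11 without the barcode of 51543 UMIs, 6 without the mixed barcodes and 59 (without WT 2) to 549 (without WT 1) with 1 library left out. Without PD-L1 KO 1 there were 144 calls and without PD-L1 KO 2 155. For the 6 genes called in unmixed cells, DESeq2 called 1, RLE size factors 10, no low-count filter 10, and leaving out 1 library 8 to 13. With the replicate number as a block 130 genes were called over 73 cells and 16 in unmixed cells, but the labels give no pairing of the libraries. Against other barcodes (1754 calls) 2839 were called without the largest barcode, 3210 without mixed barcodes and 1078 to 2609 with 1 library left out. Against cDC1 (1001) and cDC2 (684) there were 1824 and 1387 with no low-count filter, 690 to 1119 and 435 to 787 with 1 library left out. For the difference in effect from other barcodes (242), DESeq2 called 94, the fit without the largest barcode 49, without mixed barcodes 6, and leaving out 1 library gave 93 to 469. DESeq2 moved the median of all genes in that comparison to -0.20, against 0.03 with edgeR. The interferon response median (0.44) ran from -0.11 without WT 2 to 1.19 without WT 1. The log2 ratio of shares (1.16) ran from 0.84 to 1.32 over the gate and denominator settings and from 0.57 to 1.77 with 1 library left out. Of 1161 values of 92 named genes under the alternatives, 1023 stayed on their side of the threshold, 962 of them with their sign and 61 uncalled with the other sign and within 2 SE. A further 61 lost the call, 65 gained it, 10 uncalled values took the other sign and moved by over 2 SE, and 2 reversed with a call under the alternative. The 2 are of the log2 difference of Ccl5 (0.05 over 73 cells), at -4.6 with Siglech at 3 or more and -7.17 to 1.04 with 1 library left out; 63 of its 65 UMIs in PD-L1 KO 2 were in 1 cell. The cause of the other changes was not tested. Depth limits the single genes: 6 unmixed WT 2 cells gave 34589 UMIs.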
